A study of Mus musculus with 12 samples.

Results

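The 8 genes described here, Klf1, Alas2, Hba-a1, Hba-a2, Slc4a1, Rhag, Epb42 and Ermap, mark the precursors of red blood cells. They are 8 of the 24062 genes counted, and they were chosen by name as erythroid genes whose reads fell in Trp-starved livers, so the diet contrast in the livers had a part in choosing them. Mice were fed a control diet or a diet without tryptophan (No-Trp) for 21 days in 2 models of liver cancer, and polyadenylated RNA was sequenced as 1 library per mouse, with 3 mice in each of 4 groups. The comparisons ask what removing dietary tryptophan did to the transcripts of the liver or the tumor. In the first model, MYC-ON, the livers came from FVB males that carry TRE-MYC and LAP-tTA, in which a liver promoter drives the activator of the MYC transgene and MYC was switched on at birth by withdrawing doxycycline. Control livers are those of mice 101, 102 and 103, and No-Trp livers those of mice 105, 107 and 108. In the second, HCC53N cells grew as subcutaneous xenografts in female NOD SCID mice (control mice 40, 41 and 43, and No-Trp mice 35, 36 and 37). HCC53N is a single line of mouse liver cancer cells that lacks p53 and carries mutant NRAS. The sample labels also give these cells the genotype FVB MYC ON. The study states an age for MYC-ON mice in another experiment with the same length of diet, but its text does not tie that age to the sequenced mice.

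Red cells form in the liver of the fetus and in the bone marrow of the adult, and in mice the liver and spleen can take up this task again under stress. Erythroid precursors are driven by the transcription factors GATA1, TAL1 and KLF1. They import iron, build heme in a pathway that starts with the enzyme ALAS2, fill up with globin, and assemble a membrane rich in the anion exchanger band 3, which the gene Slc4a1 encodes. In liver tissue these genes are read as markers of such precursors. In bulk libraries fewer precursors and less RNA per precursor cannot be told apart.

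GATA1 binds the letters AGATAA and close relatives of it, and the 250 bases before the start of the member genes were searched for AGATAA and AGATAG, and for the forms with T in first place (TGATAA for the former and TGATAG for the latter), on both strands. RefSeq's table of promoters on GRCm38.p6 holds 7 of the 8 members; Slc4a1 is not in it. Each of the 7 has a single match, compared with 26.6% of all 32817 promoters of that length that hold at least 1. Counted from the RefSeq start, the match begins 80 bases before it in Klf1, 86 in Alas2, 31 in Rhag and 226 in Epb42. In Ermap it begins 67 bases before that start, in Hba-a1 183 and in Hba-a2 186. The GENCODE start lies upstream of the RefSeq start in all 7, by 195 bases in Epb42, 161 in Hba-a1 and 54 in Klf1. In Alas2 it lies 42 bases upstream, in Rhag 23, in Ermap 16 and in Hba-a2 3. The sequences below are those of the 5 members with reads and an entry, each cut off before the earlier of the RefSeq and GENCODE starts, with the GATA match in capitals.
Klf1, chr8:84901848-84901927, plus strand: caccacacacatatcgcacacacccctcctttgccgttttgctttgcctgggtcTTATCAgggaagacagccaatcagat
Alas2, chrX:150547295-150547374, plus strand: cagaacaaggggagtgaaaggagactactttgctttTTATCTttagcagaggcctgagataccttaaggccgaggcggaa
Rhag, chr17:40811046-40811125, plus strand: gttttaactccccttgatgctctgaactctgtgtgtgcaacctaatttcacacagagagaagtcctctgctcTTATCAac
Epb42, chr2:121037073-121037127, minus strand: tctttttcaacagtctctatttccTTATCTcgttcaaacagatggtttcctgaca
Ermap, chr4:119190012-119190091, minus strand: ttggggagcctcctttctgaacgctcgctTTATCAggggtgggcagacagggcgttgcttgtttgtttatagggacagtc
All 5 matches lie on the strand opposite to the gene, as TTATCA or TTATCT. The KLF motif CCNCNCCC occurs in Alas2 alone, and in 45.9% of all promoters. Its 4 matches there, 3 of them overlapping, begin within 42 bases of the RefSeq start, which is at or after the GENCODE start. The TAL1 E-box CAGNTG occurs in Klf1, Hba-a1, Hba-a2 and Epb42, and in 44.8% of all promoters. In both alpha globin genes its letters overlap those of the GATA match. A match is a run of letters and not a measured binding site.

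Reads on genes ranged from 14660963 to 26085349 per library. Ribosomal Rn45s took 12.1% of them in control liver 101, 2.22% in control liver 102 and at most 0.758% in the other 10. Control liver 101 and No-Trp liver 108, like control xenografts 41 and 43, are marked as resubmitted, and the mark is treated below as a possible batch. The labels name no culture or litter, so the mouse is the replicate, and within every group the libraries differed by more than counting noise. Levels below are given as CPM, which are counts scaled by the effective library size, with the SD over 3 mice.

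Klf1 (chr8:84901928-84905291, 3 exons) encodes the zinc-finger factor that switches on many late erythroid genes. It had 155, 530 and 399 reads in control livers 101, 102 and 103 and 147, 197 and 61 in No-Trp livers 105, 107 and 108. The groups overlapped, because control liver 101 lay within the No-Trp range. Mean Klf1 was 17.8 ± 11.3 CPM in the controls and 8.42 ± 3.69 CPM on the No-Trp diet, a log2 difference of −1.05 with an SE of 0.54. The neighbor Gcdh, an enzyme of tryptophan and lysine breakdown, lies 8006 bases away on the other strand and rose by 1.20 on the log2 scale in the same livers (edgeR with Benjamini-Hochberg adjustment, adjusted p = 0.0291). The nearer neighbor Dnase2a, 3268 bases away on the same strand, was at 0.29 (edgeR adjusted p = 0.406). The part of either gene in the Klf1 count was not tested.

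Alas2 (chrX:150547375-150570638, 11 exons) encodes the erythroid form of the first enzyme of heme synthesis. The control livers held 342, 1860 and 2418 reads of it and the No-Trp livers 84, 92 and 87. The groups lay apart, and the No-Trp livers stood close together, at 5.74 ± 0.981 CPM against 72.6 ± 48.8 CPM. The fitted log2 difference was −3.65 with an SE of 0.677. Alas2 shares 311 exon bases with Apex2, a DNA repair gene on the other strand, which had 263 to 370 reads in the control livers and 134 to 211 in the No-Trp livers. The counting set aside 1.74% to 2.28% of all reads in the livers as ambiguous between genes. Strand use in the counting is not given in the sources used here. Whether any of the last 84 to 92 reads belong to Apex2 therefore cannot be told.

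Hba-a1 (chr11:32283511-32284465) and Hba-a2 (chr11:32296489-32297298) encode the same adult alpha globin, which with beta globin makes up most of the protein of a red cell. Hba-a1 had 0 reads in all 12 libraries. Hba-a2 had 2 reads in No-Trp liver 108 and 0 in the other 11. A count of 0 allows up to 3 reads by counting error, which at these library totals is 0.115 to 0.205 CPM. The control livers with 4806 and 5577 reads of Slc4a1 were thus listed with no read of either gene. The adult beta globin genes Hbb-bs and Hbb-bt were likewise at 0 in every library. Of the 100-base stretches of the Hba-a1 transcript, 56.5% occur unchanged in that of Hba-a2, and of those of Hbb-bs, 62.6% occur in Hbb-bt. Between 5.24% and 8.52% of all reads per library were set aside by the authors' counting because they aligned to several places. Hbq1b, a theta globin gene that lies between the alpha genes, had 5, 35 and 48 reads in the control livers and 1, 1 and 0 in the No-Trp livers. Whether the missing globin reads are among those set aside was not tested, and these counts do not measure globin RNA.

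Slc4a1 (chr11:102348824-102366203, minus strand, 25 exons) encodes band 3, which exchanges chloride for bicarbonate and anchors the red cell skeleton. It had 370, 5577 and 4806 reads in the control livers. In the No-Trp livers 33, 28 and 100 reads were left. The groups lay apart, with control liver 101 more than 10 times below the other controls and only 2.30 times above No-Trp liver 108. Mean Slc4a1 was 175 ± 149 CPM against 3.79 ± 3.44 CPM, and the fitted log2 difference was −5.53 with an SE of 1.17.

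Rhag (chr17:40811126-40840754, 10 exons) encodes the Rh-associated glycoprotein, an ammonium and gas channel that carries the Rh complex to the membrane. Its reads numbered 79, 721 and 626 in the control livers and 2, 1 and 19 in the No-Trp livers. No-Trp liver 108 stood 16.8 times above the mean of the other two, though still below all controls. The means were 23.1 ± 18.5 CPM and 0.551 ± 0.802 CPM, with a fitted log2 difference of −5.48 and an SE of 1.26. Without No-Trp liver 108 the difference was −7.90.

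Epb42 (chr2:121017891-121037072, minus strand, 15 exons), which is listed under its older symbol Epb4.2, encodes protein 4.2, a link between band 3 and ankyrin. It had 53, 380 and 383 reads in the control livers and 5, 2 and 16 in the No-Trp livers, and the groups lay apart. Its means were 13.1 ± 9.62 CPM and 0.551 ± 0.605 CPM, and the fitted log2 difference was −4.62 with an SE of 1.03.

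Ermap (chr4:119175457-119190011, minus strand, 13 exons) encodes an adhesion-type surface protein that carries the Scianna blood group in humans. Reads on it numbered 169, 1221 and 905 in the control livers and 15, 8 and 48 in the No-Trp livers. Again control liver 101 was the lowest control and No-Trp liver 108 the highest on the No-Trp diet, without overlap. The means were 37.7 ± 30.3 CPM and 1.69 ± 1.77 CPM, with a fitted log2 difference of −4.50 and an SE of 1.01.

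**Figure D1:**
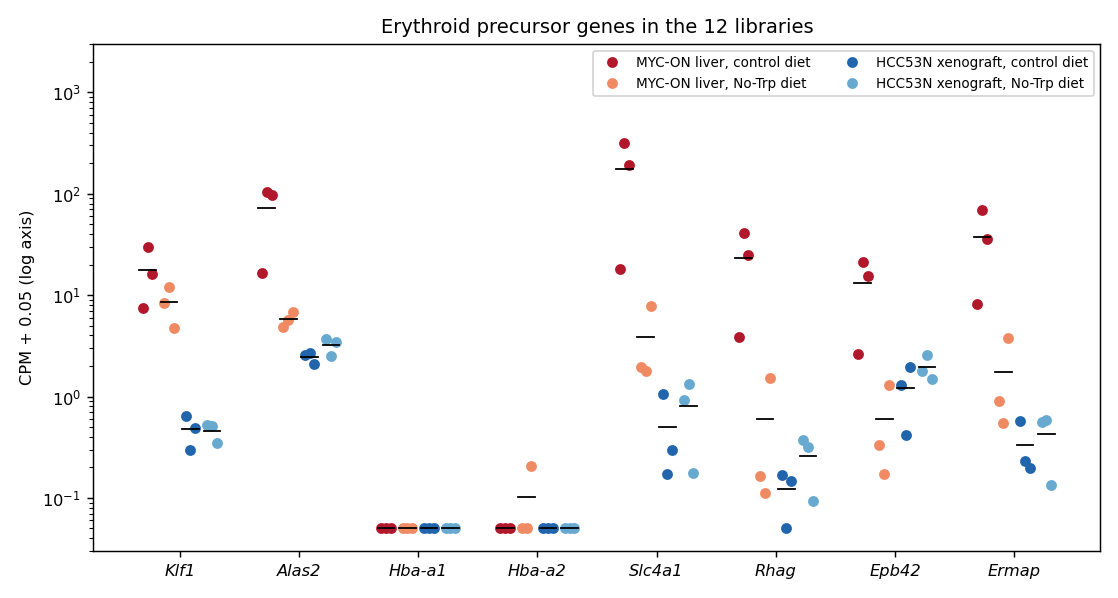
CPM of the 8 genes in each of the 12 libraries (vertical log axis, with 0.05 added so that 0 can be drawn), by model and diet; points are mice and black lines are means. For Alas2, Slc4a1, Rhag, Epb42 and Ermap the 3 control livers lie above every other library, Klf1 overlaps between the diets, and both Hba genes lie at the floor.

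Of the 8 members, 6 passed the filter on low counts in the livers and both Hba genes did not. Of those 6, 5 passed the call for a fall (edgeR, an adjusted p no higher than 0.05 with at least 1 unit of log2 change), beside 7.27% of all 14122 genes tested, and 0 passed for a rise, beside 9.28%. The 3 No-Trp livers all lay below the 3 control livers in 5 of the 6, beside 25% of all genes tested. The median log2 difference of the 6 was −4.56, and that of all genes tested was −0.00309. Since the members were selected on this contrast, nothing is read from these counts.

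The 6 members with reads did not share 1 order of the livers. Control liver 102 was the highest of the 6 livers in all 6 genes and control liver 101 the lowest of the controls. The step from 101 to 102 was 3.99-fold in Klf1, 6.35-fold in Alas2, 8.37-fold in Epb42, 8.44-fold in Ermap, 10.7-fold in Rhag and 17.6-fold in Slc4a1. On the No-Trp diet, liver 108 stood 4.31 to 16.8 times above the mean of the other livers in the 4 membrane genes and 1.29 times in Alas2, but at 0.462 times in Klf1, where it was the lowest of all 6 livers. Across the 6 livers, log2 levels of the membrane genes and Alas2 had pairwise Pearson correlations of 0.93 to 1.00, and those of Klf1 with the other 5 were 0.51 to 0.77. These describe 6 points that share the diet groups.

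The make-up of the reads on the 6 genes is given as a description, because the members were chosen on this contrast. Klf1 fell least of the 6, so its share rises where the others fall. Whether the Klf1 reads of the No-Trp livers come from precursors was not tested. Of the reads on the 6 genes, Klf1 took 13.3%, 5.15% and 4.18% in control livers 101, 102 and 103. It took 51.4% (95% Wilson interval 45.6% to 57.1%), 60.1% (54.7% to 65.2%) and 18.4% (14.6% to 23.0%) in No-Trp livers 105, 107 and 108. These intervals cover counting error only. Slc4a1 went the other way, from 31.7%, 54.2% and 50.4% to 11.5%, 8.54% and 30.2%. Alas2 kept to 18.1% to 29.3% in the control livers and 26.3% to 29.4% in the No-Trp livers. For Klf1 and Slc4a1 the shares in livers 101 and 108, which share the resubmission mark, were nearer to each other than to the rest of their groups.

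**Figure D2:**
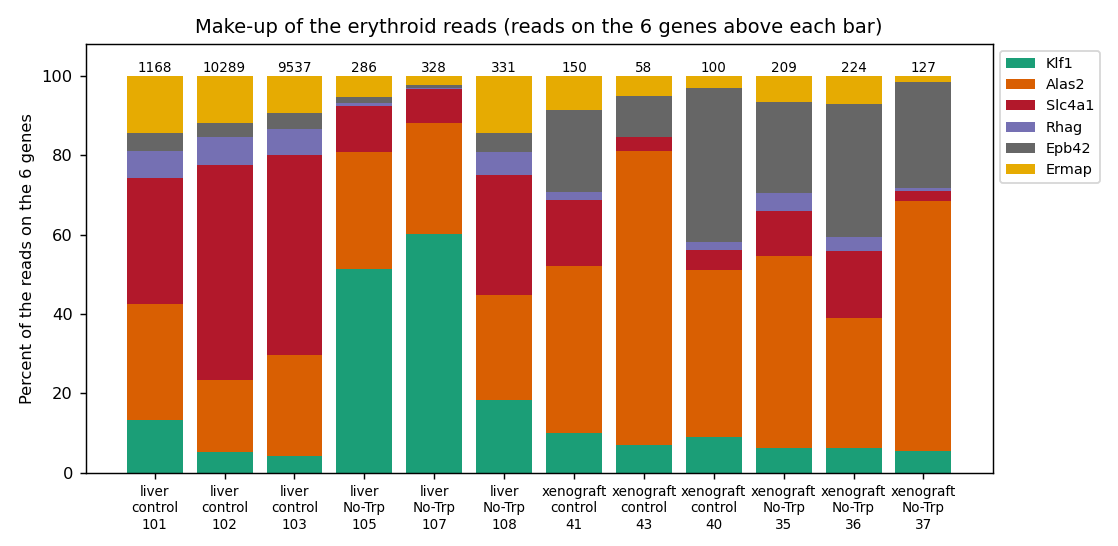
Share of each gene (percent, vertical axis) in the reads counted on Klf1, Alas2, Slc4a1, Rhag, Epb42 and Ermap, 1 bar per mouse, with the number of reads above the bar. Klf1 holds 51.4% and 60.1% in No-Trp livers 105 and 107 and at most 18.4% in the other 10 libraries, and the xenografts, with 58 to 224 reads, hold mostly Alas2 and Epb42.

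Compared per length, as CPM per kilobase of exon, Slc4a1 (35.7) and Alas2 (30.2) had the highest mean levels in the control livers. Klf1 (11.6), Rhag (9.89), Ermap (7.11) and Epb42 (2.42) followed. In the No-Trp livers Klf1 led with 5.50 CPM per kilobase, followed by Alas2 with 2.39 and Slc4a1 with 0.775, while Ermap, Rhag and Epb42 had 0.320, 0.235 and 0.102. The ranges over the mice overlapped between neighbors in the order of the control livers, where Slc4a1 alone ran from 3.65 to 64.2 CPM per kilobase. In the No-Trp livers Klf1, Alas2 and Slc4a1 did not overlap with one another, and the neighbors below them did.

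Within the libraries that share a submission, the diets differed in the same direction but by unlike amounts. Between the 2 control and 2 No-Trp livers without the resubmission mark, the log2 ratio of No-Trp to control was −1.16 for Klf1, −4.27 for Alas2, −7.13 for Slc4a1, −8.54 for Rhag, −6.49 for Epb42 and −6.28 for Ermap. Between the 2 livers with the mark it was −0.66, −1.29, −1.20, −1.37, −1.04 and −1.13 in the same order. The second set of ratios rests on 1 mouse per diet, and the mark and the mice cannot be told apart.

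The xenografts were not used to choose the members, and there the diets can be tested. Levels were low throughout: the 6 genes together summed to 3.53 to 5.98 CPM in the control xenografts and 5.39 to 7.58 CPM in the No-Trp xenografts, against 56.3 to 580 CPM in the control livers. Klf1 had 9, 15 and 4 reads in control xenografts 40, 41 and 43 and 13, 14 and 7 in No-Trp xenografts 35, 36 and 37. Alas2 was the member with most reads in most tumors, with 42, 63 and 43 against 101, 73 and 80. Even these groups overlapped in CPM, at 2.40 ± 0.298 for the controls and 3.16 ± 0.646 without Trp. Apex2, which shares exon bases with Alas2, had 587, 522 and 324 reads against 466, 520 and 338. Its part in the Alas2 reads was not tested. Slc4a1 had 5, 25 and 2 reads against 24, 38 and 3, and Ermap 3, 13 and 3 against 14, 16 and 2. Rhag had at most 9 reads in any tumor and was not tested. Epb42 had 39, 31 and 6 reads on the control diet and 48, 75 and 34 on the No-Trp diet, with overlapping CPM.

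Of the 5 members tested in the xenografts, 0 passed for a fall, beside 0.116% of all 14704 genes tested, and 0 for a rise, beside 0.245%. An unadjusted p under 0.05 was reached by 0 of the 5 as well. In no member did the No-Trp tumors all lie below the control tumors, which 11.8% of all genes did, or all above, which 10.7% did. The log2 differences were −0.09 with an SE of 0.558 for Klf1, 0.39 (SE 0.357) for Alas2, 0.67 (SE 0.906) for Slc4a1, 0.67 (SE 0.578) for Epb42 and 0.36 (SE 0.789) for Ermap, with adjusted p from 0.598 to 0.959 by edgeR. On library totals without composition factors, Klf1 was at 0.0324, and with the resubmission mark as a covariate Epb42 was at −0.0196, so neither has a settled direction. Adjusted p-values of this size do not show that the tumors were alike, since 2 to 101 reads leave wide errors.

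The levels ordered the 4 groups in nearly the same way for each gene. Control livers had the highest mean for all 6 genes, No-Trp livers came next for 5 of them, and the xenografts were lowest. The No-Trp livers lay wholly above the xenografts with the next highest mean in Klf1, Alas2 and Slc4a1, and overlapped with them in Rhag and Ermap. Klf1 in the No-Trp livers was still 20.1 times its mean in the 6 xenografts. Epb42 was the exception, with a mean of 1.89 CPM in the No-Trp xenografts and 1.17 CPM in the control xenografts against 0.551 CPM in the No-Trp livers. The control xenografts overlapped with both of the other groups, while every No-Trp liver lay below every No-Trp xenograft. Set side by side, the diet effect in the livers minus that in the xenografts, from a fit over all 12 libraries, was −0.99 for Klf1, −4.06 for Alas2, −6.20 for Slc4a1, −6.87 for Rhag, −5.30 for Epb42 and −4.88 for Ermap on the log2 scale. Of these 6, 5 passed the call, beside 6.70% of all 15472 genes called lower, and 0 the other way, beside 6.01%. They are given as a description, because the livers chose the members.

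Other genes of the red cell program were taken from 4 lists, which hold red cell membrane genes, erythroid transcription factors, genes of red cell maturation and globins, with 60 genes in all, of which 59 are in the files. In the livers 47 of them were tested, 29 were called lower and 2 higher by edgeR, beside 7.27% and 9.28% of all genes tested, and their median log2 difference was −2.26. Their calls come from the same 6 livers as the members' values and are not independent of them. The lists were also chosen with earlier results of these data known, so the excess over those shares is a description only. Leaving out a single liver gave between 0 and 23 calls for a fall. The count was 0 without control liver 103 and 0 without No-Trp liver 105, although 37 and 38 list genes had an unadjusted p below 0.05 in those fits. It was 7 without No-Trp liver 107 and 21 without control liver 101, DESeq2 on all 6 livers gave 33, and edgeR with the resubmission mark as a covariate gave 19.

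Among the 18 membrane genes, 14 were called lower and 1 higher. Sptb, the erythroid beta spectrin of the membrane skeleton, had 153, 1972 and 1544 reads in the control livers and 84, 84 and 71 in the No-Trp livers, and fell by 3.52 on the log2 scale (edgeR adjusted p = 0.0317). Slc43a1, an amino acid transporter, fell by 1.13 (adjusted p = 0.0248). Epb41, the skeleton protein 4.1 that many cell types use, rose by 1.12 (adjusted p = 0.0216). Aqp1, a water channel also of endothelium, was at 0.69 (adjusted p = 0.339).

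Of the 15 transcription factors, 8 were called lower and 1 higher. Hemgn, a nuclear protein of the lineage, fell by 5.13 on the log2 scale (edgeR adjusted p = 0.0238). The repressor gene Gfi1b changed by −4.05 (adjusted p = 0.0235), and Nfe2, which activates globin genes, by −3.48 (adjusted p = 0.0284). Tal1 changed by −2.94 (adjusted p = 0.034) and the cell cycle factor E2f2 by −2.78 (adjusted p = 0.0291). Gata1, the master factor of the lineage, had 31, 233 and 197 reads in the control livers and 3, 0 and 23 in the No-Trp livers, at −3.59 with an adjusted p of 0.0792. Zfpm1, the partner of GATA1, and Sox6, a late erythroid repressor, both of them well expressed in all livers, were at −0.14 (adjusted p = 0.764) and −0.12 (adjusted p = 0.801). The single rise was that of Klf3, a repressor related to KLF1, by 1.62 (adjusted p = 0.0262). Gata1 and Klf3 were named after their values were seen. Gfi1b, Nfe2 and Tal1 were named because their pattern was near that of the members, so nothing further is read from their falls.

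Of the 14 maturation genes tested, 7 were called lower and 0 higher. Car2, a carbonic anhydrase of red cells and other tissues, fell by 2.33 on the log2 scale (edgeR adjusted p = 0.0376). Bnip3l, a mitophagy receptor that clears mitochondria from reticulocytes, was at 0.80 with an adjusted p of 0.0235, under the fold change needed for a call. Prdx2, an antioxidant enzyme abundant in red cells, was at −0.52 (adjusted p = 0.0737). In the xenografts 34 genes of the 4 lists were tested. Of these, 1 was called lower and 0 higher, beside 0.116% and 0.245% of all 14704 genes tested. An unadjusted p under 0.05 was reached by 10, and the share of all genes that reached it is not given here. Several list genes had higher mean levels in the xenografts than in the control livers, and others lower. Which cells of the tumors these reads come from was not tested. The gene called lower is Bpgm, an enzyme that makes the regulator of oxygen release, at −1.11 with an adjusted p of 0.0487. It was called in no fit that left out a tumor. In the test of the difference between the models, 21 of 48 list genes were called lower in the livers and 2 higher, Epb41 and Bnip3l, beside 6.70% and 6.01% of all genes tested. These counts too are a description, since the lists were chosen with earlier results of these data known. The 21 became 7 with the resubmission mark as a covariate. Leaving out a library gave 24 calls without control liver 101 and 25 without No-Trp liver 108, but 6 without control liver 103 or No-Trp liver 107, 9 without No-Trp liver 105, 12 without control liver 102 and 9 to 13 when each xenograft was left out in turn.

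Heme synthesis is a task of hepatocytes as well, and its genes are not erythroid alone. Of the 8 enzymes besides Alas2, 0 were called in either direction by edgeR in the livers, and 2 had an unadjusted p under 0.05. Alas1, the form of the first enzyme that most tissues use, had 1103, 8184 and 1848 reads in the control livers and 15999, 41111 and 16788 in the No-Trp livers, at 3.04 with an adjusted p of 0.0503. Its groups lay apart in the direction opposite to Alas2. Cpox was at 0.94 (adjusted p = 0.0629) and Alad at 0.22 (adjusted p = 0.512).

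**Figure D3:**
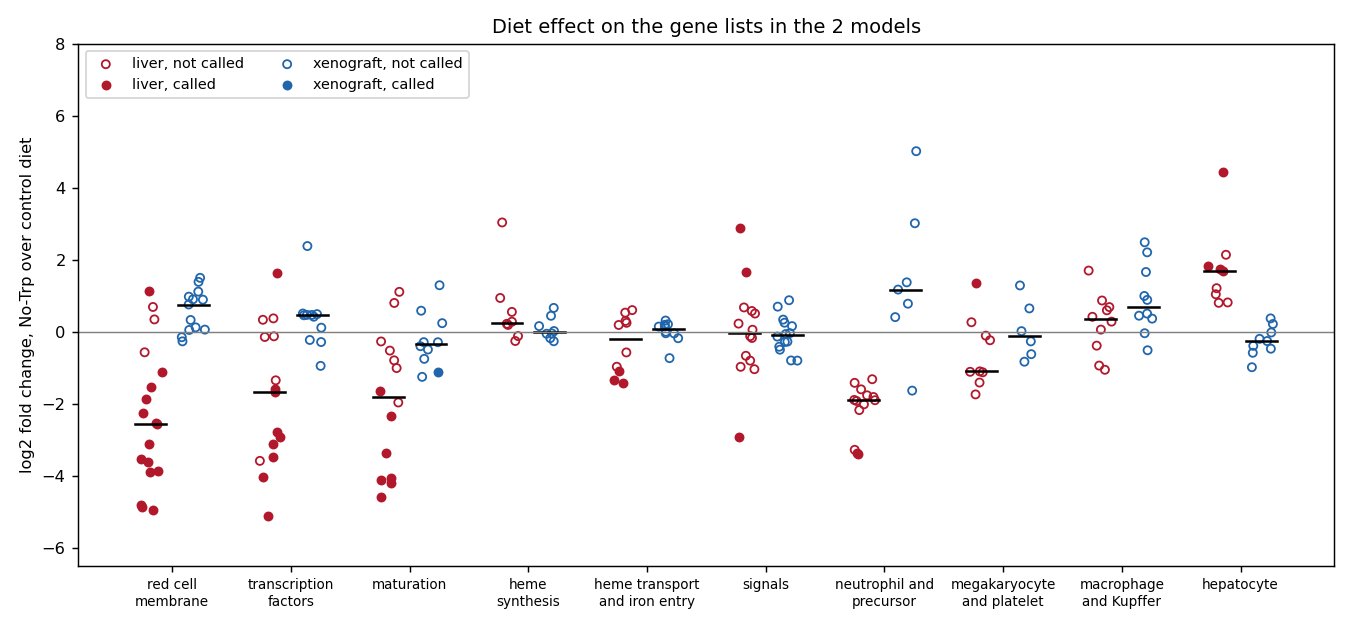
Fitted log2 fold change of No-Trp over control diet (vertical axis) for each tested gene of 10 lists in the livers (red) and the xenografts (blue); filled points passed the call and black lines are medians. The livers' membrane, transcription factor and maturation genes have medians of −2.56, −1.67 and −1.81, and the xenografts hold a single filled point, Bpgm.

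Of the 10 genes of heme transport and iron entry, 3 were called lower and 0 higher, beside the same 7.27% and 9.28% of all genes tested. Tfrc, the transferrin receptor through which precursors and dividing cells take up iron, fell from 281 ± 29.0 to 104 ± 9.57 CPM, a log2 difference of −1.42 (edgeR adjusted p = 0.0125), with every No-Trp liver below every control. Steap3, which reduces the iron that the receptor brings in, fell by 1.34 (adjusted p = 0.0142). Slc25a37, mitoferrin-1, which moves iron into mitochondria, fell by 1.09 (adjusted p = 0.0311). Glrx5, an iron-sulfur cluster protein, was at 0.19 (adjusted p = 0.415).

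Signals that govern red cell formation and iron supply were read from a list of 15 genes, 14 of them tested in the livers, with 1 called lower and 2 higher. These shares are near the 7.27% and 9.28% of all genes tested, so the list does not stand apart by its number of calls. Erfe, the erythroferrone that precursors secrete to hold back hepcidin, had 164, 147 and 167 reads in the control livers and 27, 4 and 15 in the No-Trp livers, and fell by 2.93 on the log2 scale (edgeR adjusted p = 0.0198). Control liver 101, the lowest control in the 6 members, was not low in Erfe, at 7.91 CPM against 8.28 and 6.67. Hamp, which encodes hepcidin, the hormone of hepatocytes that blocks iron release, had 3745, 2407 and 2044 reads in the control livers and 18880, 12195 and 13873 in the No-Trp livers. It rose by 2.89 (adjusted p = 0.0127), from 133 ± 49.6 to 969 ± 190 CPM. Tfr2, an iron sensor of hepatocytes and precursors, rose by 1.66 (adjusted p = 0.0326). Epo, the kidney and liver hormone that drives the lineage, had 3 reads in control liver 101, 1 in No-Trp xenograft 36 and 0 in the other 10 libraries. Its receptor gene Epor was at −1.04 (adjusted p = 0.169), from 2.99, 14.1 and 8.94 CPM to between 3.95 and 4.58 CPM, with overlapping groups.

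The remaining signal genes gave no call in the livers. Kit, the receptor of stem cell factor, was at −0.66 (edgeR adjusted p = 0.187) and its ligand gene Kitl at −0.80 (adjusted p = 0.114). Gdf15, a factor of the transforming growth factor family made by precursors and stressed cells, was at −0.97 (adjusted p = 0.0946). Bmp4, which supports stress erythropoiesis, was at 0.68 (adjusted p = 0.494), and Bcl2l1, a survival factor of erythroblasts, at 0.23 (adjusted p = 0.528). Jak2, Stat5a, Stat5b, Cish and Pim1, which carry or answer the signal of the Epo receptor, lay between −0.17 and 0.58, with adjusted p from 0.193 to 0.888.

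**Figure D4:**
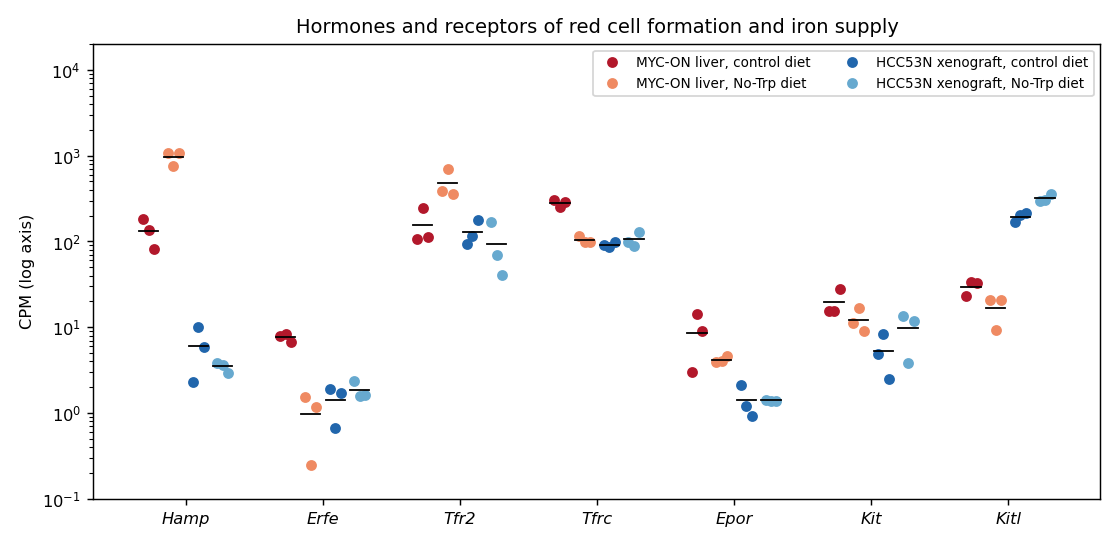
CPM (vertical log axis) of Hamp, Erfe, Tfr2, Tfrc, Epor, Kit and Kitl in each of the 12 libraries; points are mice and black lines are means. In the livers Hamp and Tfr2 lie higher and Erfe and Tfrc lower on the No-Trp diet without overlap, Epor overlaps, and in the xenografts Kitl is the gene of the 7 whose groups lie apart.

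Markers of other cells of the liver were read in the same libraries. Over all 14122 genes tested in the livers, 7.27% were called lower and 9.28% higher. A list with 1 or 2 calls is not set apart by that number. Of 13 genes of neutrophils and their precursors, which also form in blood-forming tissue, 2 were called lower in the livers, Elane at −3.38 (edgeR adjusted p = 0.0291) and Prtn3 at −3.40 (adjusted p = 0.0401), which are granule proteases of immature cells. All 13 fitted differences were below 0, while the median over all genes tested was −0.00309. Their summed level was 238 to 303 CPM in the control livers and 9.71 to 144 CPM in the No-Trp livers, highest in liver 108, and of the 13 only Ctsg and Cebpe were at 0, in liver 107. Of 9 megakaryocyte and platelet genes tested, 0 were called lower and 1 higher (Clec1b, which sinusoidal endothelium also expresses). Of these 9, 7 had fitted differences below 0, and their median was −1.10 on the log2 scale. The sums of this list overlapped, at 32.8 to 38.3 CPM in the control livers and 33.0 to 47.5 CPM in the No-Trp livers. Among the markers of basophils and mast cells 1 of 3 tested was called lower, Prss34 at −4.96 (adjusted p = 0.0209). Of 10 macrophage and Kupffer cell genes 0 passed, with sums of 425 to 774 CPM and 425 to 866 CPM. Of 9 endothelial genes 3 were called higher, with sums of 128 to 253 CPM and 291 to 446 CPM. The lists of stem and progenitor cells, B cells and T cells, of which 4 genes each were tested, gave 0 calls in the livers.

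The livers were rich in the defining genes of hepatocytes, such as Alb, and the xenografts held little of them. Of 9 hepatocyte genes 4 were called higher on the No-Trp diet, beside 9.28% of all genes tested in the livers. The sum of the 9 was 15049 to 50769 CPM in the control livers and 58495 to 142203 CPM in the No-Trp livers. In the xenografts it was 1018 to 3185 CPM. Control liver 102, the highest in the members, was the highest control in this list too. The part that these hepatocyte and neutrophil values have in the fall of the erythroid genes was not tested.

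**Figure D5:**
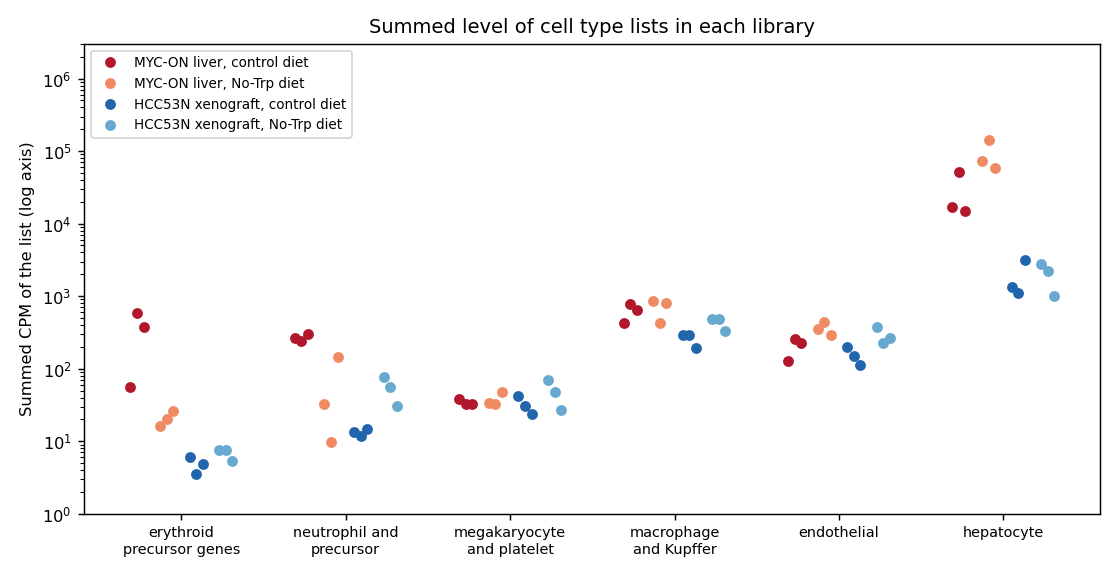
Summed CPM (vertical log axis) of the 8 genes and of the markers of 5 other cell types in each library; points are mice. In the livers the sums of the 8 genes and of the neutrophil markers lie lower on the No-Trp diet without overlap, the hepatocyte sums lie higher, and the megakaryocyte and macrophage sums overlap.

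The genes whose pattern was most like the members' were sought among 13934 genes with a mean of at least 20 reads, by Pearson correlation of log2 CPM with the members' mean. Over the 12 libraries the nearest 10 included Hemgn (0.99), Btnl10 (0.98), Kel (0.98), Car2 (0.97), Gfi1b (0.97), Nfe2 (0.97), Tal1 (0.97) and Rnpep (0.96). Of the 10, 8 are in the lists above, while Btnl10 and Rnpep are not. Over the 6 livers alone they were Ubxn2b, 2310022B05Rik, Slfn9, Hemgn, Apol8, Ank1, Cd24a, Micall2, Tbc1d25 and Tal1, with correlations of 0.99 to 1.00. Ubxn2b, first among them, followed the order of the livers through a narrow range, with 10.9, 13.5 and 12.9 CPM in the controls and 9.21, 9.04 and 10.2 CPM on the No-Trp diet. Ank1, the erythroid ankyrin that Epb42 and Slc4a1 bind, had 6.08, 57.3 and 32.7 CPM in the control livers and 1.54, 1.78 and 3.19 CPM in the No-Trp livers, but 49.4 to 175 CPM in the xenografts. With 6 points in 2 diet groups and 13934 genes, correlations of this size are descriptions.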

How the data were processed

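Read counts per gene were deposited for 12 libraries, 1 per mouse. The authors trimmed reads with Trim Galore, aligned them to mm10 with STAR 2.7.2b and counted them with HTSeq, per the labels and the methods; the deposited counts are not normalized. The 5 summary lines of each file, with 24.7% to 39.4% of its reads, were left out. Epb42, Epb41, Tent5c, Erfe and Adgre1 were read under older symbols.

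Diets were compared within each model in edgeR 4.0.16 on R 4.3.3 (TMM factors, its default low-count filter, and the robust quasi-likelihood F test of glmQLFit and glmQLFTest), and models by the interaction over all 12 libraries, with Benjamini-Hochberg adjustment over all genes tested. Calls required an adjusted p no higher than 0.05 with at least 1 unit of log2 change. The steps were run on simulated data with a single fixed dispersion for all genes. Error rates at the spread seen between the control livers were therefore not tested. Members and lists were chosen with earlier results of these data known. Of each list the text names the 4 genes with the highest control CPM, all signal genes and the 10 genes nearest in pattern. Apex2, Gcdh, Dnase2a, Gata1, Klf3, Bpgm, Rn45s, the globins, Elane, Prtn3, Prss34 and Clec1b were named after their values were seen. Some genes that this rule names are not reported here. Coordinates are from GENCODE M21 on GRCm38, and promoters from RefSeq on GRCm38.p6. Alternatives were DESeq2 1.42.0, other scalings and filters, a submission covariate, and leaving out each library.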

Additional observations from a re-analysis of the deposited data

Results flagged for a closer look

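Among genes named by the rule, 11 differed between the models in their response to the diet. The test was the interaction term of edgeR over all 12 libraries. Of all 15472 genes tested, 6.70% were called lower in the livers by this term and 6.01% higher. The 11 are not given as a share of the genes named, so they cannot be set against these percentages. The lists were chosen with earlier results of these data known, so the 11 are a description only. Calls for a fall by this term were not stable among the red cell list genes. Their 21 calls became 7 with the resubmission mark as a covariate, and 6 without control liver 103 or No-Trp liver 107. How the 11 fared in those fits is not given here. The values below are the log2 diet effect in the livers minus that in the xenografts, with 3 mice per group. Sptb was at −3.40 (SE 0.931, adjusted p = 0.0329), E2f2 at −3.30 (SE 0.733, adjusted p = 0.016), Erfe at −3.29 (SE 0.767, adjusted p = 0.0183), Car2 at −2.60 (SE 0.788, adjusted p = 0.0459) and Slc43a1, an amino acid transporter of red cells and liver, at −2.53 (SE 0.638, adjusted p = 0.0239).

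Smaller differences of the same sign were those of Tfrc at −1.64 (SE 0.228, adjusted p = 0.00446), Steap3 at −1.57 (SE 0.3, adjusted p = 0.0102) and Kitl at −1.52 (SE 0.375, adjusted p = 0.0219). For Kitl neither model's own comparison passed the call, at −0.80 in the livers and 0.70 in the xenografts.

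Of the 11, 3 lay the other way. Hamp was at 3.64 (SE 0.618, adjusted p = 0.00773), Bnip3l at 1.18 (SE 0.222, adjusted p = 0.0101) and Epb41 at 1.03 (SE 0.265, adjusted p = 0.0256). For Bnip3l too, neither model's own comparison passed the call. The xenograft levels of Hamp were low, at 2.27 to 10.1 CPM.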

How the results depend on the processing

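The signs of the 6 members' liver differences held in every alternative that tested them. Their median ranged from −5.84 to −3.93 over the fits without 1 library. It was −3.66 with at least 10 counts in every library, where only 3 of the 6 members were tested. Of the 47 list genes of the livers, 14 were called lower with at least 10 counts in every library (31 genes tested), 19 with the submission covariate, and 0 to 23 without 1 library; the 2 calls for a rise became 1 on library totals and 0 to 3 without 1 library. In the xenografts the single fall became 0 on library totals, with at least 10 counts, with the covariate, in one fit over all libraries and in each fit without 1 library. The 0 rises became 2 by DESeq2, 1 without a filter, and 0 to 1 without 1 library. For the difference between models, 21 falls became 13 with at least 10 counts, 7 with the covariate and 6 to 25 without 1 library, and the 2 rises became 0 on library totals and 1 to 3 without 1 library. The cause of these changes was not tested, except that the filter on counts tests fewer genes and leaving out a library leaves fewer samples.

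Klf1 in the xenografts changed sign on library totals (0.0324), and ranged from −0.34 to 0.24 without 1 library, being above 0 without No-Trp xenograft 37 (0.10) and without control xenograft 41 (0.24); Epb42 there changed sign with the covariate (−0.0196). With 0.5 in place of 2 as the prior count, 9 of the 10 nearest genes were kept in each list. No paired analysis was possible because no groups share mouse numbers. Depth limits Rhag, Slc4a1 and Ermap in the xenografts.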
